A study of Mus musculus with 8 samples.

Results

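RNA sequencing of fibro-adipogenic progenitors (FAPs) at 3 days post injury (dpi) was used to ask which genes differ when the transcription factor Osr1 is lost during muscle regeneration. All 4 libraries of that day were compared, 2 from control and 2 from Osr1cKO mice, out of 8 libraries in the series, and 15699 genes were tested. Both genotypes were adult mice on a C57Bl6 background that carried the tamoxifen-inducible CAGG-CreER transgene, which is active in all cell types, and both received tamoxifen when the tibialis anterior was injured by freezing and piercing and on the following days. The control mice were Osr1 flox/+ CAGG Cre+ and the Osr1cKO mice Osr1 flox/flox CAGG Cre+. Recombination puts eGFP in place of Osr1, and GFP+ cells negative for blood and endothelial surface markers were sorted, so the controls had themselves lost 1 copy of the gene and the sort kept cells in which the locus is active. Each library came from 1 mouse.

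FAPs are the mesenchymal progenitors of skeletal muscle. After injury they expand, lay down a provisional extracellular matrix, and secrete cytokines and growth factors that act on immune cells and on muscle stem cells. Osr1 is a zinc finger transcription factor of embryonic limb connective tissue that is switched on again in FAPs by injury. Much of what follows concerns genes that interferons induce, and which interferon acted on these cells was not tested. In the type I response, RNA and DNA sensors of the innate immune system induce interferon beta. Its receptor activates a complex of transcription factors that includes STAT2 and IRF9. This complex binds the interferon-stimulated response element in the promoters of antiviral genes.

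Values are TPM, transcript levels scaled by length and by library size so that every library has the same sum, and log2 fold changes are on the log2(TPM + 1) scale, Osr1cKO minus control. Each pair of values gives replicate 1 first and replicate 2 second. Osr1 was lower in both Osr1cKO libraries: replicates 1 and 2 of control held 105 and 91.0 TPM of it and replicates 1 and 2 of Osr1cKO 70.7 and 71.9 TPM. The groups did not overlap, and the means were 98.0 ± 9.90 and 71.3 ± 0.850 TPM (SD, n = 2). Its log2 fold change came to -0.45 (SE 0.13, unadjusted p = 0.0165, adjusted p = 0.774 by limma and Benjamini-Hochberg), and it ran from -0.55 to -0.36 as single libraries were left out, passing the threshold without either control library but not without either Osr1cKO library. The deposited value covers the whole gene (chr12:9570116-9581500, plus strand), including exon 1 outside the recombined part, so it does not measure how completely the gene was inactivated.

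The libraries held between 46401561 and 51096353 fragments on genes, as recovered from the deposited values. FAP markers were abundant: the 9 genes Pdgfra, Ly6a, Cd34, Thy1, Dcn, Lum, Pdgfrb, Col1a1 and Col3a1 summed to between 27107 and 43008 TPM, and none stood below 118.7 TPM in any library. Control replicate 1 stood apart from the other libraries. It took the first principal component, which held 49.8% of the variance, and it had 27107 TPM of FAP markers against 38793 to 43008 TPM in the others. The standard deviation of the log2 difference between the control libraries was 0.52, above the 0.40 between control replicate 2 and Osr1cKO replicate 1. The female transcript Xist stood between 33.9 and 52.9 TPM and the Y-linked Ddx3y, Uty and Eif2s3y at 0 in all 4 libraries.

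In total, 377 genes were called higher and 608 lower in Osr1cKO FAPs, with a call defined as a fold change over 1.2 and an unadjusted limma p under 0.05. The 985 calls were 6.27% of the genes tested (2.4% higher and 3.87% lower), while 785 genes would lie under that p with no effect of genotype. No gene passed a Benjamini-Hochberg adjusted p under 0.1 in limma, where the smallest was 0.336, so each call below is one at the unadjusted p. Among the calls, 54 higher and 210 lower genes changed by more than 2-fold. The p-values measure the spread between these mice, and with 2 libraries a side an exact two-sided permutation test of a single gene cannot go below p = 0.333. Control and Osr1cKO libraries did not overlap in 36.2% of all genes tested. They did not overlap in any of the 985 called genes, so separate groups in a called gene are a description and add nothing to its call. Without control replicate 1 the balance turned, with 588 genes higher and 393 lower; without control replicate 2 the counts were 1129 and 1723, without Osr1cKO replicate 1 they were 183 and 496, and without Osr1cKO replicate 2 they were 182 and 196.

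**Figure D1:**
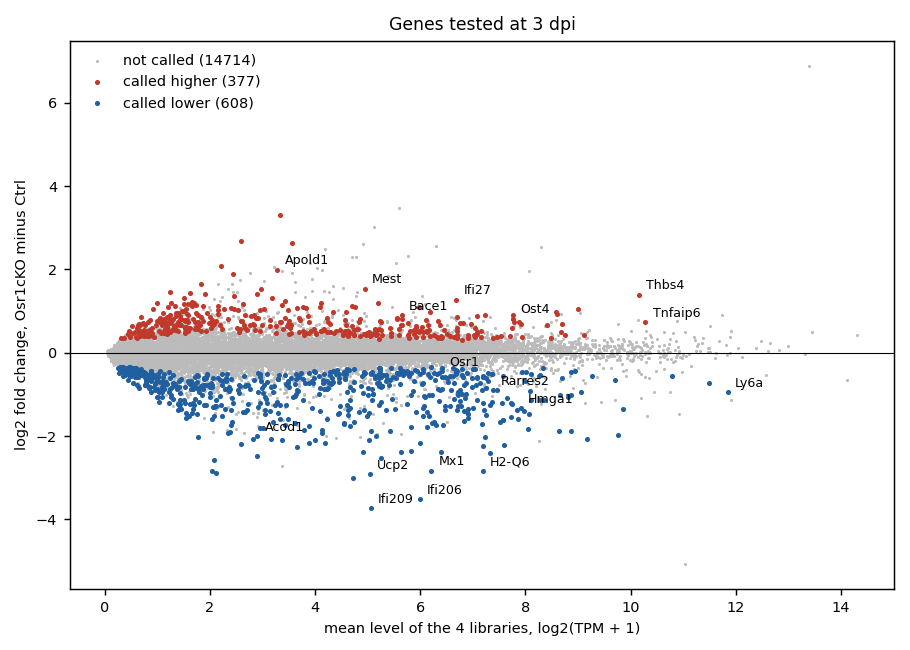
Log2 fold change (Osr1cKO minus control) of each of the 15699 genes tested against its mean level over the 4 libraries in log2(TPM + 1). Red points are the 377 genes called higher, blue points the 608 called lower and grey points the rest, and the lowest called gene is Ifi209, at -3.74.

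Genes of the interferon response were lower in Osr1cKO FAPs across their sensors, transcription factors and antiviral effectors. Over 4 lists, 86 genes were tested, 60 were called lower and 1 higher, a share of 70.9% called beside 6.27% of all genes, and the median log2 fold change was -1.27 beside 0.01. Both Osr1cKO libraries lay below both controls in 76 of the 86 genes, a pattern found in 18.0% of all genes. The fall was not even: the median level relative to the mean of the 4 libraries was 0.87 and 0.42 on the log2 scale in control, -0.05 in Osr1cKO replicate 1 and -1.25 in Osr1cKO replicate 2. For 74 of the 86 genes the order was control replicate 1, control replicate 2, Osr1cKO replicate 1, Osr1cKO replicate 2 from high to low, an order found in 1208 of all 15699 genes. Without control replicate 1, 9 of the 86 were called lower (median -1.07), and without Osr1cKO replicate 2 the number was 28 (median -0.69). It was 47 without control replicate 2 (median -1.54), and without Osr1cKO replicate 1 70 (median -1.91). With no filter on low values, 24 of the 86 were called lower, 3 of the sensors and transcription factors, 11 of the IFIT group, 4 of the OAS group and 6 of the GTPases.

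A ligand of the type I response was lower too. Ifnb1, which encodes interferon beta, had 15.6 and 10.9 TPM among controls against 4.43 and 1.02 TPM among Osr1cKO libraries. Both Osr1cKO libraries lay below both controls, Osr1cKO replicate 2 the lowest. The log2 fold change was -2.08 (SE 0.52, range -2.82 to -1.35 with single libraries left out), and Ifnb1 kept its call in every setting tried.

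Of 23 sensors, receptors and transcription factors, 10 were called lower and none higher (median -0.66). Without control replicate 1 the number was 2 (median -0.48), and without Osr1cKO replicate 2 it was 3 (median -0.38). Among the RNA sensors, Ifih1 (MDA5) had 111 and 86.6 TPM among controls against 54.8 and 23.3 TPM among Osr1cKO libraries, and Tlr3, the endosomal receptor for double-stranded RNA, had 76.8 and 52.8 TPM among controls against 32.0 and 18.7 TPM among Osr1cKO libraries. Ddx58 (RIG-I), Dhx58 and Zbp1 were also called lower, the last from 364 and 332 TPM to 231 and 74.3 TPM. Each of the 5 sensors was lower in both Osr1cKO libraries than in either control, with Osr1cKO replicate 2 the lowest. Irf7, which amplifies interferon production, had 872 and 528 TPM among controls against 384 and 87.8 TPM among Osr1cKO libraries. Stat2, part of the complex that binds the response element, had 210.1 and 123 TPM among controls against 98.6 and 35.6 TPM among Osr1cKO libraries. The fall of both was steepest in Osr1cKO replicate 2, while Osr1cKO replicate 1 lay nearer to control replicate 2. Irf2, Irf5 and Usp18, a protease that damps interferon signaling, were the other genes called lower. Adaptors and receptor chains of the pathway gave no call. The adaptors Mavs (20.7 and 26.7 TPM among controls against 22.1 and 24.7 TPM among Osr1cKO libraries) and Tmem173 (STING, 149 and 176 TPM among controls against 159 and 141 TPM among Osr1cKO libraries) and the receptor chain Ifnar2 (84.5 and 72.2 TPM among controls against 71.3 and 74.3 TPM among Osr1cKO libraries) overlapped between genotypes. The other receptor chain, Ifnar1, had 45.2 and 55.2 TPM among controls against 59.2 and 64.5 TPM among Osr1cKO libraries and was not called. Irf9, which binds DNA for the complex, was not called either, at 53.6 and 51.4 TPM among controls against 46.5 and 22.97 TPM among Osr1cKO libraries. Osr1cKO replicate 1 was close to control in it and Osr1cKO replicate 2 lay far below.

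**Figure D2:**
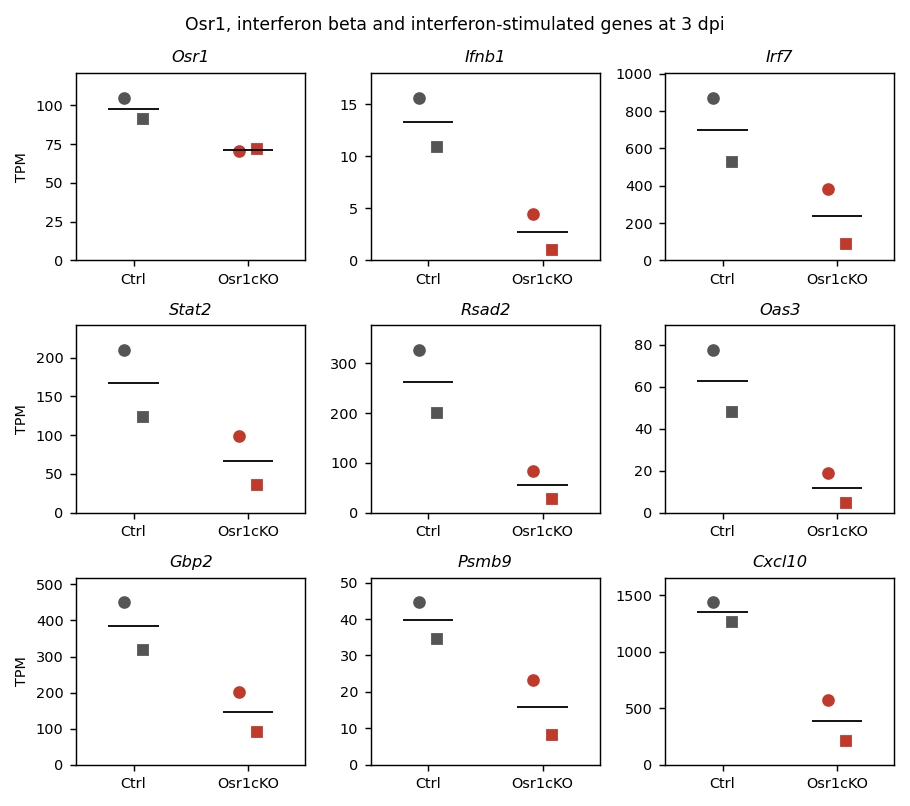
TPM of Osr1, Ifnb1 and 7 interferon-stimulated genes in the 4 libraries, with control in grey, Osr1cKO in red, circles for replicate 1, squares for replicate 2 and lines for the means. In the 8 panels other than Osr1, control replicate 1 is the highest library and Osr1cKO replicate 2 the lowest.

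The antiviral effectors moved furthest. Of 36 genes in the group of IFIT, IFITM and other effectors, 26 were called lower and 1, Ifi27, higher (median -1.30). All 9 genes of the OAS group were called lower (median -1.73), and 15 of 18 guanylate-binding proteins and immunity-related GTPases were called lower (median -1.43). Without control replicate 1 these counts fell to 4, 2 and 1 lower, with medians of -1.07, -1.62 and -1.24, and without Osr1cKO replicate 2 to 12, 6 and 7, with medians of -0.70, -0.95 and -0.78. They were 23, 5 and 10 when control replicate 2 was left out and 33, 8 and 16 when Osr1cKO replicate 1 was.

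Rsad2 (viperin), which blocks viral replication by making a chain-terminating nucleotide, had 327 and 199.7 TPM among controls against 84.6 and 26.4 TPM among Osr1cKO libraries, a log2 fold change of -2.40 (SE 0.59). Cmpk2, the neighbouring nucleotide kinase that feeds the same reaction, had 86.7 and 73.3 TPM among controls against 28.8 and 6.99 TPM among Osr1cKO libraries. Both genes were lower in both Osr1cKO libraries than in either control, and both kept their calls in every setting tried. Ifit1bl1 had the smallest p of the effectors, with 10.05 and 7.65 TPM among controls against 1.78 and 0.642 TPM among Osr1cKO libraries. Ifit3, which stabilizes the RNA-binding protein IFIT1, had 961 and 818 TPM among controls against 423 and 105 TPM among Osr1cKO libraries. In each the groups were separate, and Osr1cKO replicate 1 lay between control and Osr1cKO replicate 2. The largest fall of the group was that of the Mx1 transcript, which had 186 and 67.6 TPM among controls against 30.6 and 7.00 TPM among Osr1cKO libraries. Its log2 fold change was -2.83 (range -3.85 to -1.81), and whether it gives a working protein in these mice was not tested.

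Oas3, which makes an oligoadenylate second messenger on sensing double-stranded RNA, had 77.6 and 48.1 TPM among controls against 18.9 and 4.74 TPM among Osr1cKO libraries, a log2 fold change of -2.53 (SE 0.63), and kept its call in every setting. Oas1b, annotated as a polymorphic pseudogene, had 69.4 and 40.0 TPM among controls against 21.5 and 7.05 TPM among Osr1cKO libraries. Oasl1 had 390.0 and 223 TPM among controls against 119.6 and 32.5 TPM among Osr1cKO libraries, and both were separate between genotypes. Among the GTPases, Gbp2, which attacks the vacuoles of intracellular pathogens, had 451 and 319.5 TPM among controls against 203 and 91.9 TPM among Osr1cKO libraries. Igtp had 384 and 289 TPM among controls against 188 and 62.9 TPM among Osr1cKO libraries and Gbp7 had 81.6 and 64.7 TPM among controls against 42.9 and 21.2 TPM among Osr1cKO libraries. In these 3 genes the groups were separate, and Osr1cKO replicate 2 lay far below the other libraries. The OAS, GBP, IRG and IFIT families hold close copies whose reads the counting may have divided, so the value of a single member is less certain than that of its family.

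Several effectors did not pass. Isg15, a ubiquitin-like modifier, had 1858 and 1674 TPM among controls against 1196 and 315 TPM among Osr1cKO libraries, and Bst2 (tetherin) had 2952 and 2406 TPM among controls against 1904 and 485 TPM among Osr1cKO libraries. Their libraries did not overlap, but the spread within Osr1cKO was wide, and neither was called. Ifitm2 had 1296 and 1153 TPM among controls against 961 and 1267 TPM among Osr1cKO libraries, with the groups overlapping. Ifi27 went the other way, with 38.6 and 78.4 TPM among controls against 91.2 and 198 TPM among Osr1cKO libraries and a log2 fold change of 1.28 (SE 0.48). It was highest in the library in which the other effectors were lowest, and its call was lost without control replicate 1 and without Osr1cKO replicate 2.

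The 250 bases before the start site of each gene were searched for the core of the interferon-stimulated response element, a pair of GAAA blocks with any 2 bases between them on either strand, in the RefSeq promoters of build GRCm38.p6, which matched 11171 of the 15699 genes tested. The core was present in 21 of the 46 interferon genes called lower that had a promoter in the table (45.7%) and in 25 of the 63 tested in these lists whether called or not (39.7%), beside 3.23% of all genes tested and 2.98% of all 32851 promoters of the table. It stood in 66 of 431 genes called lower (15.3%) and in 6 of 201 called higher (2.99%). Outside the 4 interferon lists, 45 of 385 genes called lower held it (11.7%). The site of NF-kB, searched as GGGA and TTTCC with any 1 base between them on either strand, stood in 0.474% of all genes tested, in 2 of the 431 lower genes and in 1 of the 201 higher ones. Within the lists it stood in 3 of 63 interferon genes tested (4.76%) and in 3 of 20 chemokines. A match is a run of letters and says nothing of whether a factor was bound. The 150 bases before the start are shown for 4 of the effectors described above that hold the core, to let the element and its place be seen, with the match in capitals (a pair of TTTC blocks where the core lies on the other strand).
Rsad2, chr12:26456453-26456602, minus strand: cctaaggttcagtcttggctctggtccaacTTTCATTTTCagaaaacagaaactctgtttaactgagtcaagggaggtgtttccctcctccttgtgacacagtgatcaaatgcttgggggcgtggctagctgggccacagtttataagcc
Ifit3, chr19:34583379-34583528, plus strand: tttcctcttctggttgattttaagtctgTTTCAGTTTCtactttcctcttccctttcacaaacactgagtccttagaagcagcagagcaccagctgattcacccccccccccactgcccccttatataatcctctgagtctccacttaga
Gbp7, chr3:142530186-142530335, plus strand: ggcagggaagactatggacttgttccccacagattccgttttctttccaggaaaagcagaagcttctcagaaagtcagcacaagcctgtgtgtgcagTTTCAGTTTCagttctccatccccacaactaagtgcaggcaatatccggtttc
Igtp, chr11:58199406-58199555, plus strand: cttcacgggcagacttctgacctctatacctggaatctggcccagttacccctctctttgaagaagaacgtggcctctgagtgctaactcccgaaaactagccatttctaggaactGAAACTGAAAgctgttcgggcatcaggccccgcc
The match began 120 bases before the start in Rsad2, 122 in Ifit3, 53 in Gbp7 and 34 in Igtp.

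The PYHIN genes of the Ifi200 cluster on chromosome 1, nuclear and cytosolic DNA-binding proteins, held the largest falls of the named genes. Ifi209 had 96.6 and 26.4 TPM among controls against 4.26 and 1.85 TPM among Osr1cKO libraries, a log2 fold change of -3.74 (SE 0.66). Ifi206 had 174 and 55.8 TPM among controls against 18.0 and 2.98 TPM among Osr1cKO libraries, and Ifi208 had 66.7 and 24.7 TPM among controls against 8.36 and 1.90 TPM among Osr1cKO libraries. All 3 were separate between genotypes and kept their calls in every setting, though they share long stretches of sequence with each other and their neighbours. Ifi202b, which lies in the same cluster and was looked at after its values were seen, stood at 0.520 and 0.0926 TPM among controls against 0.0931 and 188 TPM among Osr1cKO libraries. That transcript was near 0 in 3 libraries and abundant in Osr1cKO replicate 2 alone, the library with the lowest interferon genes. Ifi202b is known to differ between inbred mouse strains. The study gives a C57Bl6 background for its mice, and whether the libraries differ in genetic background was not tested.

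Antigen presentation on MHC class I, which interferons induce, was lower as well. Of 24 genes tested, 11 were called lower and none higher (median -1.11), a share of 45.8% beside 6.27% of all genes, and 3 were called lower with no filter on low values. H2-Q6, a nonclassical class I heavy chain with close copies, had 318 and 159 TPM among controls against 90.7 and 9.71 TPM among Osr1cKO libraries. Tap1, a subunit of the peptide transporter, had 212 and 186 TPM among controls against 127 and 56.3 TPM among Osr1cKO libraries. Psmb9 and Psmb10, catalytic subunits of the immunoproteasome, had 44.7 and 34.6 TPM among controls against 23.3 and 8.20 TPM among Osr1cKO libraries for Psmb9 and 264 and 188 TPM among controls against 129 and 74.4 TPM among Osr1cKO libraries for Psmb10. Nlrc5, the transactivator of class I genes, had 31.6 and 16.9 TPM among controls against 8.84 and 2.20 TPM among Osr1cKO libraries. All 5 fell in both Osr1cKO libraries below either control. The classical heavy chain H2-K1 (1290.3 and 919 TPM among controls against 792 and 313 TPM among Osr1cKO libraries) and B2m, the shared light chain (5545 and 4645 TPM among controls against 3854 and 1379.7 TPM among Osr1cKO libraries), showed the same order of libraries but were not called. The chaperones Calr and Canx, which also serve the general folding of glycoproteins, overlapped between genotypes. The list had 1 gene called lower when control replicate 1 was left out, without control replicate 2 it was 4, without Osr1cKO replicate 1 it was 21 and without Osr1cKO replicate 2 it was 5.

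Of 28 chemokines tested, 6 were called lower and 1 higher (median -0.25), 25.0% beside 6.27% of all genes. The interferon-induced CXCR3 ligand Cxcl10 fell from 1438 and 1264 TPM to 573 and 206 TPM. Cxcl9, another such ligand, stood at 551 and 370.0 TPM among controls against 268 and 38.9 TPM among Osr1cKO libraries and was not called. Cxcl11, annotated as a polymorphic pseudogene, was called lower at a low level. It had 1.778 and 1.098 TPM among controls against 0.6457 and 0.1208 TPM among Osr1cKO libraries. Whether Cxcl11 gives a working protein in these mice was not tested. Ccl5, which attracts T cells and monocytes, had 318 and 156 TPM among controls against 84.6 and 25.5 TPM among Osr1cKO libraries. The monocyte attractants Ccl2 and Ccl7 were high in all libraries and tight within genotype, with 3608 and 3556 TPM among controls against 2153 and 2173 TPM among Osr1cKO libraries for Ccl2 and 2274 and 1939.5 TPM among controls against 1425 and 1427 TPM among Osr1cKO libraries for Ccl7. In these genes the Osr1cKO libraries lay close together, unlike the interferon-stimulated genes. Ccl20 rose, at low levels, from 2.37 and 1.66 TPM to 3.73 and 4.08 TPM. The neutrophil attractants Cxcl1 (1987 and 2645 TPM among controls against 2166 and 3189.8 TPM among Osr1cKO libraries) and Cxcl5 (449.6 and 666 TPM among controls against 292 and 966 TPM among Osr1cKO libraries) overlapped between genotypes. The number of chemokines called lower was 2 without control replicate 1, 2 without Osr1cKO replicate 2 and 2 with no filter on low values.

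Among 32 cytokines and their receptors, 6 were called lower and 2 higher (median -0.22), again 25.0%. Il18, an inflammasome-dependent cytokine, had 37.7 and 34.1 TPM among controls against 21.4 and 19.3 TPM among Osr1cKO libraries and kept its call in every setting. Il15, which sustains natural killer cells, had 16.2 and 11.8 TPM among controls against 6.08 and 2.43 TPM among Osr1cKO libraries, and its receptor chain Il15ra was also called lower. Tslp and Tnfsf10 (TRAIL) completed the lower group with Ifnb1. Lif, a cytokine of the interleukin 6 family that acts on myoblasts, rose from 156 and 183 TPM to 264 and 248 TPM, and Tnfsf11 (RANKL) had 6.18 and 4.39 TPM among controls against 10.2 and 18.0 TPM among Osr1cKO libraries. Lif was the more abundant of the 2 higher genes, and its libraries lay close together within each genotype. Il6 itself had 171 and 96.5 TPM among controls against 105 and 210.5 TPM among Osr1cKO libraries and was not called, nor were Il33 (149.5 and 215 TPM among controls against 196 and 253 TPM among Osr1cKO libraries) or Csf1 (1347 and 959.7 TPM among controls against 737 and 806 TPM among Osr1cKO libraries). The numbers were 10 lower and 3 higher with control replicate 2 left out, without control replicate 1 they were 5 and 4, and without Osr1cKO replicate 2 they were 4 and 1.

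Toll-like receptor and NF-kB genes had 22.2% and 10.7% of their members called, beside 6.27% of all genes. Of 18 Toll-like receptor genes, Nod1 (51.4 and 39.0 TPM among controls against 28.1 and 25.3 TPM among Osr1cKO libraries), Nod2 and Tlr7 were called lower and Cd14, a co-receptor for lipopolysaccharide, higher (7.97 and 8.12 TPM among controls against 11.0 and 20.6 TPM among Osr1cKO libraries). Of 28 NF-kB subunits and targets, Tnfaip3 and Tnip1, which damp the pathway, were called lower, and Tnfaip6, a hyaluronan-modifying protein induced by TNF, rose from 856 and 1007 TPM to 1412 and 1691 TPM. The medians of these lists were -0.20 and -0.21. Nfkb1 (129 and 94.4 TPM among controls against 94.2 and 141 TPM among Osr1cKO libraries) and Nfkbia, the inhibitor it induces, overlapped between genotypes. Of 21 complement genes, 4 were called lower and none higher. Cfb, a protease of the alternative pathway, had 109.6 and 86.9 TPM among controls against 54.5 and 42.1 TPM among Osr1cKO libraries and kept its call in every setting. C4b had 302 and 133 TPM among controls against 91.7 and 63.4 TPM among Osr1cKO libraries and C2 had 48.1 and 23.1 TPM among controls against 15.1 and 8.07 TPM among Osr1cKO libraries, both highest in control replicate 1, and C1ra was the remaining one. Leaving out control replicate 2 raised the lower calls to 7, 7 and 11 in these 3 lists, while without Osr1cKO replicate 2 they were 2, 0 and 1. Leaving out control replicate 1 gave 3, 2 and 2. Acod1, which makes the immunometabolite itaconate, was not on a list and fell from 12.6 and 9.23 TPM to 2.83 and 1.25 TPM.

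Genes of cell death were lower where they were called at all. Of 32 genes of the Bcl2 family, death receptors and p53 targets, 8 were called lower and none higher (median -0.14). Those 8 made up 25.0% of the list, beside 3.87% of all genes called lower. They included the inflammatory caspases Casp1 (7.17 and 5.89 TPM among controls against 3.60 and 3.02 TPM among Osr1cKO libraries) and Casp4 (61.6 and 32.5 TPM among controls against 14.9 and 16.9 TPM among Osr1cKO libraries), the p53-induced killers Bbc3 (PUMA, 23.1 and 22.8 TPM among controls against 15.9 and 13.8 TPM among Osr1cKO libraries) and Bax, and the survival gene Bcl2l1 (Bcl-xL, 37.9 and 25.3 TPM among controls against 17.3 and 16.7 TPM among Osr1cKO libraries). Promoters and inhibitors of apoptosis thus fell side by side, and Casp4 kept its call in every setting. Trp53 itself (141 and 143 TPM among controls against 137 and 149 TPM among Osr1cKO libraries) overlapped between genotypes. Cdkn1a (p21), a p53 target that halts the cell cycle, was called lower on the cell cycle list, at 373 and 274 TPM among controls against 208 and 238 TPM among Osr1cKO libraries. Gdf15, a stress-induced cytokine, fell from 29.0 and 38.7 TPM to 14.6 and 14.8 TPM. Of the 32 genes, 1 was called lower without Osr1cKO replicate 2, 5 without Osr1cKO replicate 1, and 11 lower and 1 higher without control replicate 2.

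**Figure D3:**
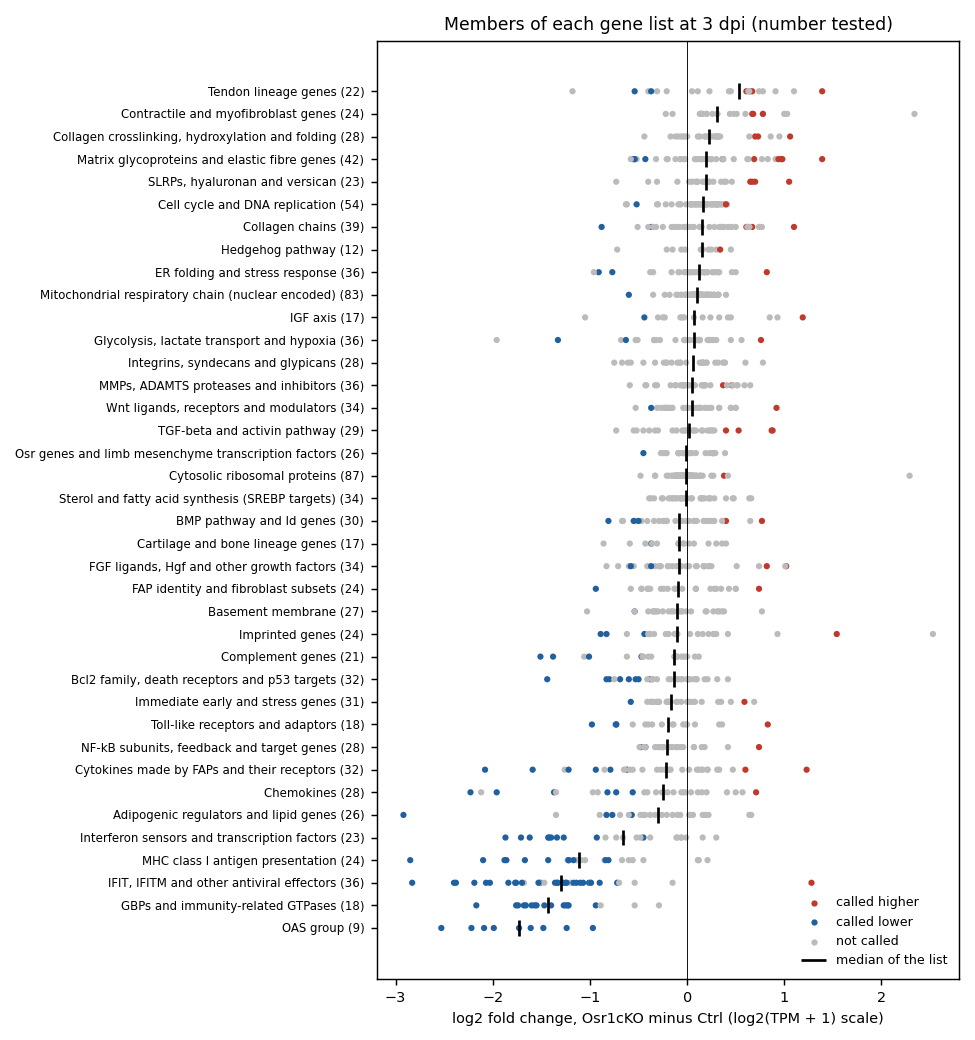
Log2 fold change (Osr1cKO minus control) of every tested member of each gene list other than the cell type markers, with the number tested in brackets, in red where called higher, blue where called lower and grey where not called, and a bar at the median of the list. The lists of interferon effectors and MHC class I lie at the lower end, with medians from -1.73 to -1.11, and the tendon list has the highest median, 0.53.

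Extracellular matrix genes leaned the other way, with smaller changes. Over 6 lists of collagens, matrix glycoproteins, proteoglycans, collagen-modifying enzymes, contractile and tendon genes, 165 genes were tested, 19 were called higher and 7 lower, beside 2.4% and 3.87% of all genes, 120 had a log2 fold change above 0, and the median was 0.22. Here the lead library was a different one: Osr1cKO replicate 1 was the highest of the 4 in 97 of the 165 genes and Osr1cKO replicate 2 in 21, and control replicate 1 was the lowest in 83. The median relative level was -0.18 and -0.02 in control, 0.24 in Osr1cKO replicate 1 and -0.03 in Osr1cKO replicate 2. Without Osr1cKO replicate 1, 5 genes were called higher (median 0.07). The median was 0.30 when control replicate 2 was left out, 0.11 for control replicate 1 and 0.35 for Osr1cKO replicate 2.

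**Figure D4:**
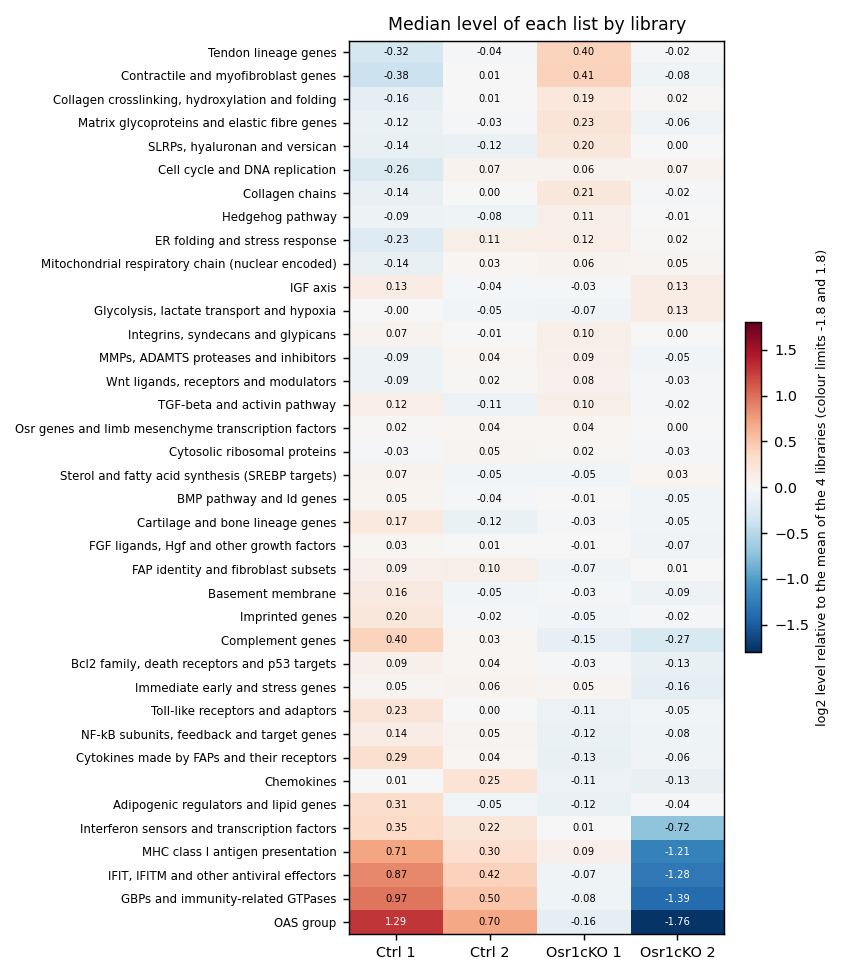
Median level of the tested members of each list in each library, on the log2 scale relative to the mean of the 4 libraries, with lists ordered by their median log2 fold change. For the interferon and MHC class I lists Osr1cKO replicate 2 is the lowest library, down to -1.76, and for the collagen, glycoprotein, proteoglycan, crosslinking, contractile and tendon lists Osr1cKO replicate 1 is the highest, up to 0.41.

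The matrix genes of these lists whose calls were checked and held in every setting were the glycoproteins Thbs4 and Tnn. Thbs4, a thrombospondin of tendon and muscle attachments, had 517 and 766 TPM among controls against 1747 and 1552 TPM among Osr1cKO libraries, means of 642 ± 176 and 1649.6 ± 138 TPM (SD, n = 2). Its log2 fold change was 1.39 (SE 0.26, unadjusted p = 0.00299 from limma, range 1.09 to 1.67), and each Osr1cKO library was more than 2-fold above either control. Tnn (tenascin W) had 40.6 and 56.2 TPM among controls against 98.8 and 91.5 TPM among Osr1cKO libraries, and Fndc1, a fibronectin type III domain protein outside the lists, had 159.9 and 192 TPM among controls against 294 and 292 TPM among Osr1cKO libraries. In both genes the Osr1cKO libraries nearly coincided. The other glycoproteins called higher were Emilin1, a regulator of elastic fibres (209.9 and 332 TPM among controls against 502 and 509 TPM among Osr1cKO libraries), Fbn2, Thbs3 and Fbln7, and those called lower were Comp (66.2 and 53.1 TPM among controls against 38.9 and 42.0 TPM among Osr1cKO libraries), Efemp1, Ccn3 and Ecm1. The abundant Fn1 (1883 and 2736 TPM among controls against 3676 and 2307 TPM among Osr1cKO libraries), Tnc (1654 and 2992 TPM among controls against 6216 and 2819 TPM among Osr1cKO libraries) and Postn (1048 and 1717 TPM among controls against 3050.1 and 1717 TPM among Osr1cKO libraries) were not called. Each was highest in Osr1cKO replicate 1, while Osr1cKO replicate 2 lay within the range of the controls.

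Of 39 collagen chains, 3 were called higher and 2 lower (12.8% called beside 6.27% of all genes, median 0.15). Col12a1, which bridges collagen I fibrils, rose from 268 and 256 TPM to 464 and 373 TPM, and Col27a1, a fibrillar collagen, from 10.7 and 23.2 TPM to 35.3 and 34.9 TPM. Col11a1 was called at a low level, with 1.51 and 1.77 TPM among controls against 3.09 and 2.97 TPM among Osr1cKO libraries. The lower chains were Col2a1 and Col9a3, both cartilage collagens below 5 TPM. The bulk fibrillar chains Col1a1 (12404 and 22891 TPM among controls against 25017 and 20485 TPM among Osr1cKO libraries) and Col3a1 (6401 and 12654 TPM among controls against 11930.4 and 13468 TPM among Osr1cKO libraries) differed more between the control libraries than between the genotype means. Without Osr1cKO replicate 1 no collagen was called by limma in either direction, and without control replicate 2 the counts were 8 higher and 6 lower.

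Enzymes and proteoglycans that shape collagen gave few calls, all of them higher. The share called was 10.7% for crosslinking, hydroxylation and folding, 17.4% for the proteoglycan list and 5.56% for the proteases and inhibitors. Among all genes it was 6.27%, with 3.87% called lower, so the lack of lower calls in lists this short does not set a direction. Of 28 genes for crosslinking, hydroxylation and folding of collagen, 3 were called higher and none lower (median 0.23): Plod2, a lysyl hydroxylase of crosslinking sites (133 and 198 TPM among controls against 275 and 266 TPM among Osr1cKO libraries), Colgalt2, a collagen galactosyltransferase, and Ppib, a prolyl isomerase. Of 23 small leucine-rich proteoglycans and hyaluronan genes, 4 were called higher and none lower (median 0.19). Aspn (asporin) led them, with 278 and 383 TPM among controls against 847 and 537 TPM among Osr1cKO libraries, and Kera, Cemip and Podnl1 were low, all below 10 TPM. Kera had 3 and 3 fragments among controls against 31 and 13 among Osr1cKO libraries. It passed the fragment filter through the Osr1cKO libraries alone, which favours a higher call. Without Osr1cKO replicate 1 the 2 lists gave 1 and 0 higher calls, without Osr1cKO replicate 2 they gave 0 and 6, without control replicate 1 they gave 5 and 1 and without control replicate 2 they gave 7 and 2. Of 36 matrix metalloproteinases, ADAMTS proteases and inhibitors, Adamts4 and Adamts3, which cleave aggrecan and procollagen, were called higher (129 and 117 TPM among controls against 161 and 158 TPM among Osr1cKO libraries for Adamts4), and the counts were 3 higher and 2 lower with control replicate 2 left out. Basement membrane genes did not lean upward, with 1 of 27 called, Lama3, lower (median -0.10), and of 28 integrins, syndecans and glypicans none was called by limma, as Itgb1 (753 and 801 TPM among controls against 884 and 848 TPM among Osr1cKO libraries) shows. With control replicate 2 left out, 3 basement membrane genes were called higher and 8 lower, and 4 and 5 of the integrin list.

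**Figure D5:**
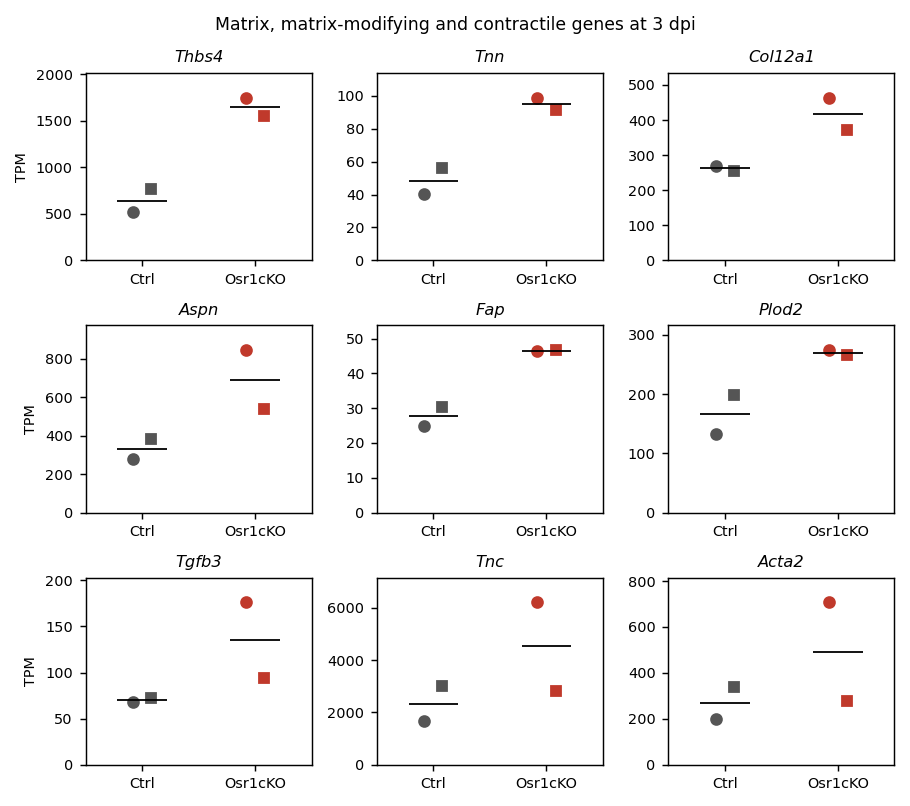
TPM of 9 matrix, matrix-modifying and contractile genes in the 4 libraries, with control in grey, Osr1cKO in red, circles for replicate 1, squares for replicate 2 and lines for the means. In the panels of the 7 called genes both Osr1cKO libraries lie above both controls, whereas for Tnc and Acta2, which were not called, Osr1cKO replicate 2 lies between the controls.

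TGFβ drives matrix synthesis in fibroblasts. Of 29 genes of its pathway, 4 were called higher and none lower (13.8% beside 2.4% of all genes called higher, median 0.02). These were Tgfb2 (61.4 and 49.3 TPM among controls against 86.3 and 73.9 TPM among Osr1cKO libraries), Tgfb3 (68.0 and 72.9 TPM among controls against 176 and 94.2 TPM among Osr1cKO libraries), Inhba, a subunit of activin A (106 and 79.5 TPM among controls against 228 and 126 TPM among Osr1cKO libraries), and Ltbp3, which holds latent TGFβ in the matrix (70.6 and 72.8 TPM among controls against 97.4 and 92.8 TPM among Osr1cKO libraries). Tgfb3 and Inhba rested on Osr1cKO replicate 1, and without that library none of the 4 was called and 3 other genes of the list were called lower. The counts were 1 higher and 3 lower with control replicate 2 left out. Tgfb1 had 60.4 and 64.0 TPM among controls against 95.8 and 54.0 TPM among Osr1cKO libraries and overlapped between genotypes, as did Tgfbr1, Tgfbr2 and Smad3. Of 30 genes of the BMP pathway, the targets Id1 (262 and 189.7 TPM among controls against 152 and 151 TPM among Osr1cKO libraries) and Id2 and the antagonist Nog were called lower, and Bmp6 and Bmpr1b higher (16.7% called beside 6.27% of all genes, median -0.08). Leaving out control replicate 2 gave 8 lower and 1 higher in this list.

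Contractile genes leaned higher, as the matrix lists did, and 12.5% of them were called beside 6.27% of all genes. Of 24, 3 were called higher and none lower (median 0.31): Vcl (vinculin, 102 and 88.2 TPM among controls against 175 and 132 TPM among Osr1cKO libraries), Palld (40.8 and 58.3 TPM among controls against 103 and 68.8 TPM among Osr1cKO libraries) and Myh10, a nonmuscle myosin (30.5 and 46.2 TPM among controls against 59.5 and 61.4 TPM among Osr1cKO libraries). The classical myofibroblast marker Acta2 had 198 and 337 TPM among controls against 708 and 276 TPM among Osr1cKO libraries and was not called, and Tagln had 34.4 and 4.23 TPM among controls against 145 and 31.2 TPM among Osr1cKO libraries. For both, a single library, Osr1cKO replicate 1, was more than 2-fold above the rest. Of 22 tendon lineage genes, 4 were called higher and 2 lower (27.3% beside 6.27% of all genes), with the highest median of any list at 0.53. The tendon transcription factors Scx (0.720 and 2.35 TPM among controls against 5.83 and 2.89 TPM among Osr1cKO libraries) and Mkx (1.65 and 3.68 TPM among controls against 5.98 and 3.95 TPM among Osr1cKO libraries) had separate groups and were not called, and the called members were Thbs4, Col12a1, Col11a1 and Kera, already described, and Comp and Cilp2, lower. Of these, Kera stood at 0.106 and 0.103 TPM among controls and passed the fragment filter through the Osr1cKO libraries alone. Without Osr1cKO replicate 1 the contractile list had no call in limma (median 0.08) and the tendon list 1 higher (median 0.29), and without Osr1cKO replicate 2 they had 7 and 6 higher.

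Some of the largest and tightest differences lay outside these groups. Ucp2, a transporter of the inner mitochondrial membrane, fell from 51.5 and 62.3 TPM to 8.52 and 5.07 TPM, means of 56.9 ± 7.65 and 6.79 ± 2.44 TPM (SD, n = 2). Its log2 fold change of -2.92 (SE 0.28, unadjusted p = 0.000123 from limma, range -3.27 to -2.57) had the smallest p of the protein-coding genes with a mean over the 4 libraries of at least 5 TPM, an 8.38-fold lower mean. Hmga1, a chromatin protein of proliferating cells, had 384 and 302 TPM among controls against 111 and 162 TPM among Osr1cKO libraries. Tmem35a, a chaperone of nicotinic receptors, had 13.4 and 9.59 TPM among controls against 2.60 and 2.51 TPM among Osr1cKO libraries, and Rarres2 (chemerin), an adipokine and chemoattractant, had 233 and 203 TPM among controls against 107 and 125 TPM among Osr1cKO libraries. In these 4 genes the gap between genotypes exceeded the spread within each. The transporters Slco3a1, Slco2a1, which takes up prostaglandins, and Slc31a2, a copper transporter, fell by 0.82, 1.25 and 0.87 on the log2 scale. Slco2a1 had 63.4 and 40.5 TPM among controls against 21.8 and 19.8 TPM among Osr1cKO libraries. Below that mean, Trim34b, a member of an interferon-induced ubiquitin ligase family with close copies, had the smallest p of any protein-coding gene and was picked for it, with 5.69 and 6.67 TPM among controls against 0.299 and 0.124 TPM among Osr1cKO libraries, a log2 fold change of -2.56 (SE 0.20, adjusted p = 0.336 by limma and Benjamini-Hochberg).

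Among the higher genes, Bace1, a protease that sheds membrane proteins, had 32.1 and 35.7 TPM among controls against 64.4 and 64.2 TPM among Osr1cKO libraries, and Ost4, a subunit of the oligosaccharyltransferase, had 149.9 and 164 TPM among controls against 269 and 287 TPM among Osr1cKO libraries. Exons of Rnf214 and of Agbl5 overlap them from the other strand, and whether the counting used strand is not stated. Other named genes share this limit, among them Ucp2, Rarres2, Hmga1, Gpr39, Mest and Cxcl10. Fap, the fibroblast activation protein, had 24.8 and 30.5 TPM among controls against 46.3 and 46.8 TPM among Osr1cKO libraries, and Aoc3, an amine oxidase of mesenchymal cells, had 54.4 and 53.04 TPM among controls against 84.4 and 87.5 TPM among Osr1cKO libraries. In Bace1, Ost4, Fap and Aoc3 the Osr1cKO libraries nearly coincided. Myo7a, an unconventional myosin, rose from 13.7 and 17.2 TPM to 36.9 and 32.8 TPM, Slc7a2, an arginine transporter, from 7.88 and 11.1 TPM to 23.2 and 22.7 TPM, and Gpr39, a zinc-sensing receptor, from 4.82 and 3.60 TPM to 12.8 and 10.9 TPM. Among protein-coding genes called higher with a mean of at least 5 TPM, the largest log2 fold changes were those of Apold1 (1.99), Mest (1.54), Kif26b (1.40) and Thbs4. Mest, an imprinted gene, had 10.5 and 18.4 TPM among controls against 60.4 and 29.6 TPM among Osr1cKO libraries, Kif26b, a kinesin family protein, had 2.64 and 3.48 TPM among controls against 11.5 and 8.10 TPM among Osr1cKO libraries, and Angpt4, an angiopoietin, had 6.84 and 9.53 TPM among controls against 19.9 and 16.6 TPM among Osr1cKO libraries. Apold1 and Mest were much higher in Osr1cKO replicate 1 than in replicate 2, and both lost their calls without Osr1cKO replicate 1 and without control replicate 1.

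The growth factors that FAPs send to muscle stem cells changed in single members. Igf1, a trophic factor for regenerating fibres, had 15.8 and 27.7 TPM among controls against 44.1 and 54.6 TPM among Osr1cKO libraries, a log2 fold change of 1.195 (SE 0.29). Both Osr1cKO libraries lay above either control, and the call was lost without Osr1cKO replicate 2. Igf2 was called lower below 2 TPM. Together Igf1 and Igf2 were 11.8% of the 17 genes tested of the IGF list, beside 6.27% of all genes. Of 34 other growth factors, Areg (1.98 and 3.69 TPM among controls against 8.59 and 4.96 TPM among Osr1cKO libraries) and Bdnf were called higher and Btc and Tgfa lower, all 4 below 10 TPM. That was 11.8% of these growth factors, beside 6.27% of all genes. Tgfa was near the floor, with 0.470 and 0.254 TPM among controls against 0.0487 and 0.0471 TPM among Osr1cKO libraries. Its fragments were 38 and 21 against 4 and 4, so it passed the fragment filter through the controls alone, which favours a lower call. Of 34 Wnt genes, the secreted inhibitor Sfrp1 rose from 81.4 and 124 TPM to 152 and 238 TPM and Wnt6 was lower below 1 TPM. These calls were 5.88% of the list, beside 6.27% of all genes. The log2 fold change of Sfrp1 was 0.92 (range 0.60 to 1.22 with single libraries left out), and its call was lost with no filter on low values. Of 12 hedgehog genes, Cdon was called higher (31.6 and 31.8 TPM among controls against 37.8 and 42.7 TPM among Osr1cKO libraries), 8.33% of the list beside 6.27% of all genes. The call was lost when any of the 4 libraries was left out and under other scalings. Without control replicate 2, 5 growth factors were called higher and 8 lower.

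Of 26 adipogenic and lipid genes, 4 were called lower and none higher (15.4% beside 6.27% of all genes, median -0.30): Ucp2, Dlk1 (11.1 and 9.77 TPM among controls against 6.08 and 4.76 TPM among Osr1cKO libraries), which holds preadipocytes undifferentiated, Zfp467 (7.00 and 7.24 TPM among controls against 4.03 and 3.48 TPM among Osr1cKO libraries), which promotes adipogenesis, and Plin2, a lipid droplet protein (132 and 133 TPM among controls against 102 and 76.8 TPM among Osr1cKO libraries). Pparg (5.96 and 1.89 TPM among controls against 1.66 and 1.89 TPM among Osr1cKO libraries) and Fabp4 (20.6 and 1.38 TPM among controls against 0.828 and 3.32 TPM among Osr1cKO libraries) were highest in control replicate 1 and not called. Both were low in the other 3 libraries. The median of the list was -0.06 with control replicate 1 left out, without control replicate 2 there were 12 lower calls, and without Osr1cKO replicate 2 there was 1. Of 17 cartilage and bone genes, Col2a1 was called lower, 5.88% of the list. That call was lost without control replicate 1 and with a filter of mean TPM at least 1, and without control replicate 2 the list had 1 higher and 6 lower. Among 24 imprinted genes, Mest was higher and Nnat, Dlk1 and Igf2 lower, 16.7% of the list beside 6.27% of all genes. Nnat had 26 and 44 fragments among controls against 8 and 8 among Osr1cKO libraries. It passed the fragment filter through the controls alone, which favours a lower call. The median of the imprinted genes was -0.1, and 0.05 with control replicate 1 left out.

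Housekeeping groups gave calls near or below the 6.27% of all genes. In the cell cycle list, 43 of 54 genes had a log2 fold change above 0, yet 1 was called higher, Cdkn2c, and 1 lower, Cdkn1a (median 0.16). Mki67, the proliferation marker, had 69.3 and 88.5 TPM among controls against 87.3 and 122 TPM among Osr1cKO libraries, with control replicate 1 the lowest library and Osr1cKO replicate 1 within the range of the controls. Leaving out control replicate 1 brought the median of the list to -0.01, and leaving out control replicate 2 brought it to 0.32 with 15 higher and 4 lower calls. In the respiratory chain, 71 of 83 genes were above 0 with a median of 0.10, Cox5a was called higher and Cox7a1 lower. The counts were 5 higher and 2 lower when control replicate 2 was left out. Of 87 ribosomal proteins Rpl22l1 was called higher, and 4 were when control replicate 1 was left out. In glycolysis and hypoxia, Car12 was called higher and Car9 and Adm lower, Adm from 268 and 104 TPM to 52.4 and 82.3 TPM. No sterol or fatty acid synthesis gene of 34 was called by limma, while 2 were higher and 4 lower without control replicate 2, and 2 were higher without Osr1cKO replicate 1. In the endoplasmic reticulum list, Ost4 was higher and the stress genes Ddit3 (CHOP, 54.2 and 50.02 TPM among controls against 35.3 and 25.6 TPM among Osr1cKO libraries) and Trib3 lower. Leaving out control replicate 2, 10 genes of the endoplasmic reticulum list were called higher and 8 of the glycolysis list lower. Of 31 immediate early genes, Nr4a3 rose from 110.1 and 97.3 TPM to 145 and 169 TPM and Hspa1b was lower, with 7 lower when control replicate 2 was left out and 4 higher when control replicate 1 was.

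The identity of the sorted cells was described from their own transcription factors and from markers of other cell types. Of 26 limb mesenchyme transcription factors tested, Osr1 was the single call, 3.85% of the list beside 6.27% of all genes. Its paralog Osr2 had 49.7 and 61.5 TPM among controls against 66.0 and 67.8 TPM among Osr1cKO libraries, and Prrx1, Twist1 and Hic1 differed by at most 0.22 on the log2 scale. Of 24 FAP and fibroblast genes, Fap was called higher and Ly6a (Sca-1), the surface antigen used to mark FAPs and also induced by interferon, lower. These were 8.33% of the list, beside 6.27% of all genes. Ly6a had 5407 and 4232 TPM among controls against 3058 and 2020.1 TPM among Osr1cKO libraries, the same order of libraries as the interferon genes, and its call was lost without control replicate 1 and without Osr1cKO replicate 2. Pdgfra, the other defining marker, had 366 and 340.5 TPM among controls against 254 and 336 TPM among Osr1cKO libraries and was not called. Without control replicate 2, 4 genes of the FAP list were called higher and 6 lower. In bulk RNA, fewer cells of a type and less RNA per cell cannot be told apart.

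Defining markers of blood cells and Schwann cells were scarce in all 4 libraries. The 8 macrophage markers (Adgre1, Cd68, Csf1r, Itgam, Lyz2, Ptprc, Mrc1 and C1qa) summed to between 11.3 and 20.4 TPM, and the pan-leukocyte marker Ptprc did not exceed 0.0515 TPM. Osr1cKO replicate 2, the library with the lowest interferon genes, had the lowest macrophage sum, 11.3 TPM against 18.7 to 20.4 TPM in the other 3 libraries, and the part of this in the interferon result was not tested. Neutrophil markers summed to at most 2.97 TPM, Schwann cell markers to at most 0.962 TPM and erythroid markers to at most 1.35 TPM. The endothelial markers Pecam1, Cdh5, Kdr and Tie1 summed to 19.1 TPM in control replicate 1, of which Kdr gave 16.8, against 2.36 to 4.72 TPM in the others. All 10 tested genes of the longer endothelial list had log2 fold changes below 0 (median -0.38). In 7 of them both Osr1cKO libraries lay below both controls, a pattern found in 18.0% of all genes. The list summed to 424.4, 351.6, 332.6 and 246.1 TPM in the 4 libraries, mostly Eng (374 and 325 TPM among controls against 312 and 224 TPM among Osr1cKO libraries), a TGFβ co-receptor that mesenchymal cells also express. Their part in the results was not tested. Control replicate 1 also held the most lymphoid marker RNA (11.4 TPM against 4.28 to 5.06 TPM), nearly all of it Cd79a, with Cd3e and Nkg7 at 0 in every library. Tenocyte markers (Scx, Tnmd and Mkx) summed to 5.22 and 9.29 TPM among controls against 16.5 and 11.1 TPM among Osr1cKO libraries, the order of the tendon and matrix genes, and mural markers to 21.5 and 27.3 TPM against 39.2 and 20.8 TPM. Whether such cells have a part in the matrix result was not tested. Over the longer lists for these cell types, 1 myofiber gene (Tnnc1) was called lower, 1 Schwann cell gene (Ngfr) higher and no gene of the macrophage, neutrophil, lymphoid, endothelial, mural, muscle stem cell or erythroid lists was called by limma. Without control replicate 2, 4 endothelial genes were called lower.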

How the data were processed

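RNA sequencing was measured in 4 libraries of sorted FAPs at 3 dpi, 2 per genotype, each from 1 mouse. The values used are TPM per gene as deposited. The authors made stranded poly(A) libraries and used STAR for alignment to mm10, and DESeq2 appears in the submitters' processing notes. How fragments were counted, with which annotation and whether by strand, is not given in the sources used here. The table held 55385 entries, of which 109 with a repeated symbol were left out, and GENCODE release 21 exon lengths matched 53275 of the rest. With these lengths, 98.7% of values under 50 fragments came within 0.02 of a whole number, so fragments per gene were recovered for the filter. The range of 46401561 to 51096353 fragments per library limits the precision of genes with few fragments, beside the number of mice.

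Genes with at least 10 fragments in 2 libraries and 15 over all 4 were tested, and genes without a length at a mean of at least 1 TPM. A gene could thus pass through the 2 libraries of 1 genotype, as Kera, Nnat and Tgfa did. For such a gene the filter favours a call toward that genotype. TPM were scaled by trimmed means of log ratios (30% trimmed), and log2(TPM + 1) was compared in limma 3.58.1 (R 4.3.3; lmFit and eBayes with trend), with Benjamini-Hochberg adjustment over all genes tested. A call needs a fold over 1.2 and an unadjusted p under 0.05, thresholds taken from the study's 3 dpi comparison. The script was tested on simulated data. Tables were handled with Python 3.11.15, pandas 2.3.3 and NumPy 2.4.6.

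The genes named by rule are Osr1, per direction the 12 protein-coding genes with the smallest p and the 6 with the largest change among called genes with a mean of at least 5 TPM, and up to 4 called genes per list. Other members named were chosen after their values were seen. The comparison, the gene lists and the tests were chosen with earlier results of these data known. Libraries of 7 dpi entered no comparison except as an alternative that estimates the spread from all 8 libraries. Both genotypes carry replicate numbers 1 and 2, which the sources do not tie to a shared litter or day.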

Additional observations from a re-analysis of the deposited data

How the results depend on the processing

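The 377 higher and 608 lower calls kept within 1.5 times of these counts under no further scaling, median-of-ratios scaling, scaling over all genes listed, a filter of mean TPM at least 1, pseudocounts of 0.1 and 5, limma-voom on recovered fragments and robust eBayes. The higher count was 592 with no filter and 825 with the spread estimated from all 8 libraries, and the lower count was 934 in the latter, where limma with Benjamini-Hochberg adjustment gave 12 genes at an adjusted p under 0.1. At that adjusted p there were 0 higher and 0 lower genes among the 4 libraries, where 377 and 608 pass the unadjusted p, and limma-voom gave 0 as well. With a fold over 1.5 in place of 1.2, 210 higher and 421 lower genes were counted. The share of calls that were higher was 38.3%, and 48.9% with no filter, 46.9% with all 8 libraries and 59.9% without control replicate 1. Leaving out 1 library at a time gave 182 to 1129 higher and 196 to 1723 lower genes, with the lone library of a genotype assumed to vary like the other genotype. Taking the replicate number as a block gave 331 higher and 649 lower genes. Libraries with the same number deviated from their genotype means with a correlation of -0.131, so the numbers are not known to pair the mice, and the crossed pairing, chosen after the data were seen, gave 483 higher and 685 lower genes. Of 148 named genes none turned its direction under these settings, 81 of the 129 called kept the call wherever all 4 libraries were used and 35 in every setting. With no filter 24 of the 86 interferon genes and 3 of the 24 MHC class I genes were called lower, against 60 and 11, and the cause was not tested. Genes with few fragments are limited by depth, and levels near 1 TPM by the pseudocount, which shrinks their fold changes.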

Other observations

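A few transcripts stood apart in single libraries and were looked at after their values were seen. Gm42418 (chr17:39846958-39848788, plus strand), which overlaps a ribosomal RNA locus, had 13085 and 0 TPM among controls against 8690.5 and 21050.3 TPM among Osr1cKO libraries, and CT010467.1, the overlapping entry on the minus strand, had 2.08 and 8316 TPM among controls against 2.44 and 5.70 TPM among Osr1cKO libraries. The library at 0 for the first was the library highest for the second. Gm12481 had 37.6 and 0 TPM among controls against 47.1 and 50.4 TPM among Osr1cKO libraries, again at 0 in control replicate 2 alone. Cxcl13, a chemokine that attracts B cells, had 293 and 7.79 TPM among controls against 8.18 and 42.3 TPM among Osr1cKO libraries and was not called, being far higher in control replicate 1 than in the other libraries.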
